A study of Mus musculus with 15 samples.

Results

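The genes described here are 8 members of the hyaluronan system of the mouse, chosen by name from the 53465 genes of the deposited table. They are the synthases *Has1*, *Has2* and *Has3*, the hyaluronidases *Hyal1* and *Hyal2*, the receptor *Cd44*, the binding protein gene *Tnfaip6* and the proteoglycan gene *Vcan*. Their levels were followed across 15 RNA sequencing libraries, 5 from each of 3 cell populations sorted out of tumors of B16-F0, a mouse melanoma cell line. The hosts were CAG-GFP mice, which carry GFP under a ubiquitous promoter, and the tumors were collected on day 15 without treatment. The study as a whole used mice of both sexes aged 8 to 14 weeks and does not give sex or age for these hosts separately. All populations were GFP+ Lin-CD34+ cells, and GFP marks host cells of any type and not endothelial cells alone. In other mice, with a label driven by the endothelial gene *Cdh5*, the study reports that most Lin-CD34+ tumor cells carried it. The hosts of these libraries had no such label. Endovascular progenitors (EVP) were gated as CD31lo VEGFR2lo, transit amplifying cells (TA) as CD31int VEGFR2lo and definitive differentiated cells (D) as CD31hi VEGFR2hi. None of the 8 genes encodes CD34, CD31 or VEGFR2, the named markers of the gates.

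Hyaluronan is a very long, unsulfated sugar chain made of alternating glucuronic acid and N-acetylglucosamine. Synthases in the plasma membrane build it from UDP-sugars and push it out of the cell, where it forms a hydrated coat that is held by receptors such as CD44 and organized by proteins such as versican and TSG-6. Hyaluronidases cut it, and in vessels it is part of the glycocalyx on the endothelial surface.

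The libraries held 5394356 to 26513073 reads counted on genes, and replicate 1 was the shallowest of each population. A floor of 3 reads stood for 1.81 to 10.5 normalized counts, depending on the library. The floors reflect counting error alone, because no molecular identifiers were used. The labelled populations differed widely in marker transcripts. The summed level of 10 endothelial markers lay at 2230 to 4206 normalized counts in EVP, 5703 to 68850 in TA and 95258 to 154877 in D, and mean *Cdh5*, which encodes VE-cadherin, was 72.3 in EVP against 9818 in D. The summed level of 10 fibroblast markers, collagen genes and *Pdgfra* among them, lay at 859953 to 1546620 in EVP, 195726 to 616732 in TA and 979 to 4106 in D. All 10 fibroblast markers were detected in every EVP library, and 4 of them had a D library without a read. Mast cell markers reached 94059 in TA, 14865 in EVP and 200 in D, and 6 of 6 had a D library at 0. Melanoma markers, of the GFP- tumor cells, summed to 29156 to 66912 in EVP, 68700 to 175253 in TA and 18070 to 47750 in D. Between EVP and D, limma called 11.6% of all genes tested as higher in EVP and 7.46% as higher in D. Of the markers, 10 of 10 fibroblast and 5 of 6 mast cell were higher in EVP and 9 of 10 endothelial in D. Between TA and D, 8.21% were called as higher in TA and 4.31% as higher in D. Higher in TA were 10 of 10 fibroblast, 6 of 6 melanoma, 6 of 6 mast cell and 5 of 5 keratinocyte markers. So were 5 of 10 leukocyte and 5 of 9 mural markers, while 6 of 10 endothelial were higher in D. Between EVP and TA, 1.56% were called as higher in EVP, with 5 of 10 fibroblast markers, and 1.94% as higher in TA. The latter held 8 of 10 endothelial, 3 of 6 melanoma, 3 of 10 leukocyte and 2 of 9 mural markers. The summed levels of the keratinocyte list were 1021 to 5932 in EVP, 1069 to 68738 in TA and 63.9 to 1840 in D, and those of the leukocyte list 1583 to 6634, 3794 to 22997 and 1230 to 3035. Mural markers summed to 5287 to 29146 in EVP, 5503 to 146624 in TA and 5067 to 10789 in D. Lymphatic markers summed to 8275 to 18794 in EVP, 4356 to 5518 in TA and 2894 to 5471 in D. Of these 5 lymphatic markers, 1 was called as higher in EVP than in D and 2 as higher in D, and 3 had an EVP library without a read. Their median log2 fold change of EVP over D was -0.59, beside 0.46 over all genes, so the sums do not describe the list as a whole. Not every list differed in every comparison. Between EVP and D, 0 of 6 melanoma and 1 of 10 leukocyte markers were called. Mural markers split there, with 3 higher in EVP and 2 higher in D. Between EVP and TA, 0 of 6 mast cell and 0 of 5 keratinocyte markers were called. The part of these lists in the hyaluronan results was not tested.

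EVP expressed the hyaluronan-producing and hyaluronan-organizing genes at far higher levels than D. *Has1*, *Has2*, *Cd44*, *Tnfaip6* and *Vcan* were all higher in EVP, by 10.4-fold for *Cd44* and 457-fold for *Has1* at the ends of the range of mean normalized counts. *Hyal2*, which encodes a hyaluronidase anchored to the cell surface, ran the other way and was 4.03-fold higher in D. *Hyal1* did not pass the test and *Has3* was too low to be tested. Of the 7 members tested, 6 were called by limma with an adjusted p under 0.05, 5 of them higher in EVP, where 19.0% of all 25549 genes tested were called, 11.6% as higher in EVP and 7.46% as higher in D. The 6 called members had no overlap between EVP and D libraries, which held for 17.7% of all genes, 10.2% with EVP above D and 7.52% with D above EVP. The median log2 fold change of the 7 members was 7.29 beside 0.46 over all genes. In sorted bulk samples, fewer cells of a type and less RNA per cell cannot be told apart. The labels do not say that libraries came from separate animals, so p-values measure the spread between these libraries, which may be technical.

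**Figure D1:**
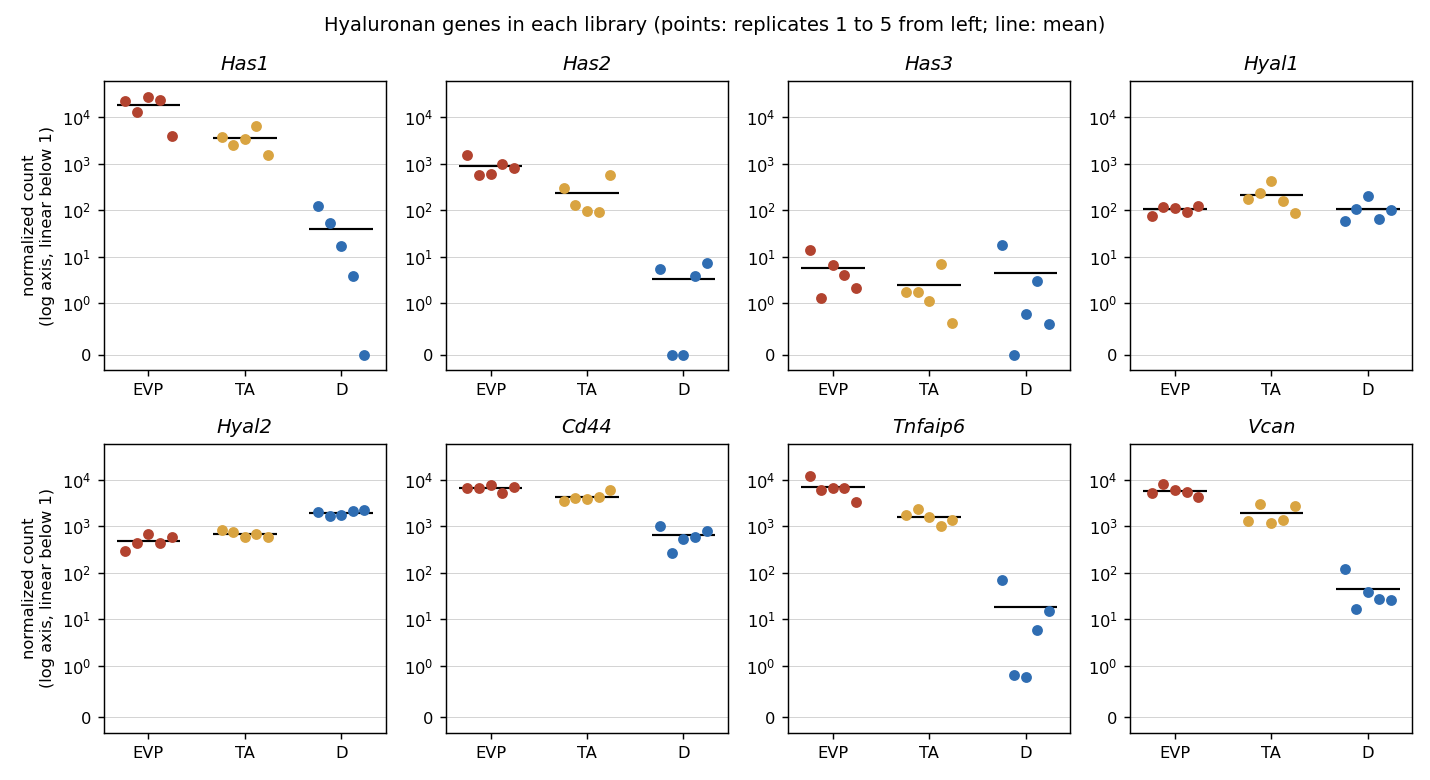
Normalized counts of the 8 genes in each library on a log axis that is linear below 1, with replicates 1 to 5 from left to right in EVP, TA and D and a line at the mean. For *Has1*, *Has2*, *Cd44*, *Tnfaip6* and *Vcan* all D points lie below the EVP and TA points, for *Hyal2* all D points, with a mean of 1951, lie above them, *Hyal1* stays between 57.7 and 424, and *Has3* lies at 17.8 or below.

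The sequence upstream of the transcription start is shown for *Has1*, *Tnfaip6* and *Vcan*, which were over 100-fold higher in EVP than in D. RefSeq windows on GRCm38.p6 existed for 6 of the 8 members, and the stretch before the first annotated exon is printed on the strand of each gene, 5′ to 3′. Capitals mark matches, on either strand, to an AP-1 site (TGANTCA), a CRE (TGACGTCA), a CCAAT box or a GC box of the letters GGGCGG. The windows are chr17:17855206-17855438 on the minus strand for *Has1*, chr2:52037863-52038008 on the plus strand for *Tnfaip6* and chr13:89742513-89742762 on the minus strand for *Vcan*. The window of *Hyal2* begins inside the gene as the annotation used here gives it, and it is not shown.
Has1: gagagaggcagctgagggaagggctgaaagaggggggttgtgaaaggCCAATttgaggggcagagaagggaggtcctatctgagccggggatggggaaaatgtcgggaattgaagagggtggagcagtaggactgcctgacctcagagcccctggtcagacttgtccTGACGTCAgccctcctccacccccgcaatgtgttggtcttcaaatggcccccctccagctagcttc
Tnfaip6: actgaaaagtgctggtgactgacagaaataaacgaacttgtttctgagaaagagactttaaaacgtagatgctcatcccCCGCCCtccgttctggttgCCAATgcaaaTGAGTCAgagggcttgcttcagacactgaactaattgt
Vcan: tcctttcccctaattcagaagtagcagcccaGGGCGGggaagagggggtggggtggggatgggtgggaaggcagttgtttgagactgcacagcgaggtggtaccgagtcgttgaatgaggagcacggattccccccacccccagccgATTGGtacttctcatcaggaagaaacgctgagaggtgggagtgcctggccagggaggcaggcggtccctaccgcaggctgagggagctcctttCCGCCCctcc
In the 250 bases upstream of the RefSeq start, *Has1* held a CRE that began 83 bases before that start. This motif was found in 1.55% of the 32851 windows of that length. *Tnfaip6* held an AP-1 match from 142 bases upstream of its RefSeq start, as did 6.75% of windows. It also held a CCAAT box 152 bases upstream, a motif of 33.8% of windows. The RefSeq starts of *Has1* and *Tnfaip6* lie beyond the first annotated exon base, where their printed stretches of 233 and 146 bases end. Their printed matches thus lie nearer to the end of the stretch than these distances say. *Vcan* held GC boxes at 219 and 10 bases upstream, and 32.7% of windows hold one. A TATA box (TATAAA) and an NF-kB site were searched as well and matched none of the 3, against 12.4% and 7.25% of all windows. *Has1* also held a CCAAT box at 203 bases and *Vcan* one at 103. *Tnfaip6* also held a GC box at 171 bases and, outside the printed stretch, a CCAAT box at 81. Of the genes not shown, *Hyal2* held an NF-kB match at 238 bases and a GC box at 47. *Hyal1* held GC boxes at 77 and 72 bases and a CCAAT box at 49. *Cd44* held none of the motifs searched. A match describes the letters and not a bound site. The motifs were chosen after the sequences were seen, so the shares of windows do not measure how unusual these matches are.

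*Has1* encodes a synthase that needs a rich supply of UDP-sugars to be active. It lies on chromosome 17 from 17843328 to 17855188 (minus strand, GRCm38, ENSMUSG00000003665), and it is among the genes the study picked from these libraries, so its direction is not independent evidence. In EVP replicates 1 to 5 it reached 21853, 13048, 27079, 23617 and 3999 normalized counts. In TA the values were 3756, 2462, 3434, 6419 and 1542, and in D 122, 53.1, 17.2, 3.76 and 0. EVP replicate 5 was the lowest of its population and lay below TA replicate 4, so EVP and TA overlapped, and the D libraries rested on 89 reads or fewer. Means were 17919 ± 9345 in EVP, 3523 ± 1837 in TA and 39.2 ± 50.9 in D (SD, n = 5 libraries each). The log2 fold change of EVP over D was 10.03 (SE 0.96, limma adjusted p = 5.9e-07), and it was 10.81 without D replicate 1 and 9.08 without D replicate 5.

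*Has2* encodes the synthase that is needed for heart cushion formation in the embryo and supplies much of the hyaluronan of mesenchyme. It is on chromosome 15 from 56665627 to 56694539 (minus strand, ENSMUSG00000022367). EVP libraries held 1524, 568, 587, 966 and 818 normalized counts, TA libraries 307, 131, 98.2, 89.3 and 562, and D libraries 5.49, 0, 0, 3.76 and 7.25. Every EVP library was above every TA library, and the closest pair was EVP replicate 2 and TA replicate 5. *Has2* was 271-fold higher in EVP than in D (log2 fold change 8.11, SE 0.66, limma adjusted p = 1.0e-07), with at most 12 reads in any D library. Its antisense transcript gene *Has2os* shares 182 exon bases with it and ranged from 87.1 to 238 in EVP, 20.1 to 67.2 in TA and 0 to 5.49 in D. The library kit does not mark strand, so reads from the shared bases cannot be told apart. *Has3* on chromosome 8, the remaining synthase, averaged 5.59 ± 5.14 in EVP, 2.45 ± 2.61 in TA and 4.45 ± 7.58 in D. Its highest value was 17.8 in D replicate 1, from 13 reads, and 9 of the 15 libraries were at or under the floor. Without a minimum mean, the limma log2 fold changes were 0.84 for EVP over D (adjusted p = 0.753), 0.86 for EVP over TA (0.848) and -0.011 for TA over D (1), so no difference was detectable at this depth.

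Levels of different genes were compared per kilobase of merged exon length, which is a rough scale because single transcripts can be shorter. On it, *Has1* made up 82.1 to 97.7% of synthase transcripts in EVP and 72.0 to 98.5% in TA. *Has2* accounted for nearly all of the rest. Its share was highest in replicate 5 of both populations, at 17.9% in EVP and 28.0% in TA, beside 2.26 to 6.92% in the other EVP and 1.46 to 8.01% in the other TA libraries. In these libraries the shares rested on at least 2358 synthase reads, whereas the D libraries held 13 to 106 and their shares are not interpreted. EVP replicate 5 and TA replicate 5 also had the highest mural cell marker sums of their populations, 29146 against 5287 to 9123 in the other EVP libraries and 146624 against 5503 to 37553 in the other TA libraries, and the part of this in the share was not tested. In EVP replicate 5, *Has1* was the lowest of its population (3999 normalized counts) and *Has2* was at the median (818). In TA replicate 5, *Has1* was the lowest (1542) and *Has2* the highest (562). The synthases summed to 1078 to 6133 normalized counts per kilobase in EVP, 474 to 1443 in TA and 1.81 to 31.1 in D. The ratio of that sum to *Hyal2* per kilobase ran from 6.14 to 59.5 in EVP, from 2.498 to 7.05 in TA and from 0.0027 to 0.0506 in D.

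**Figure D2:**
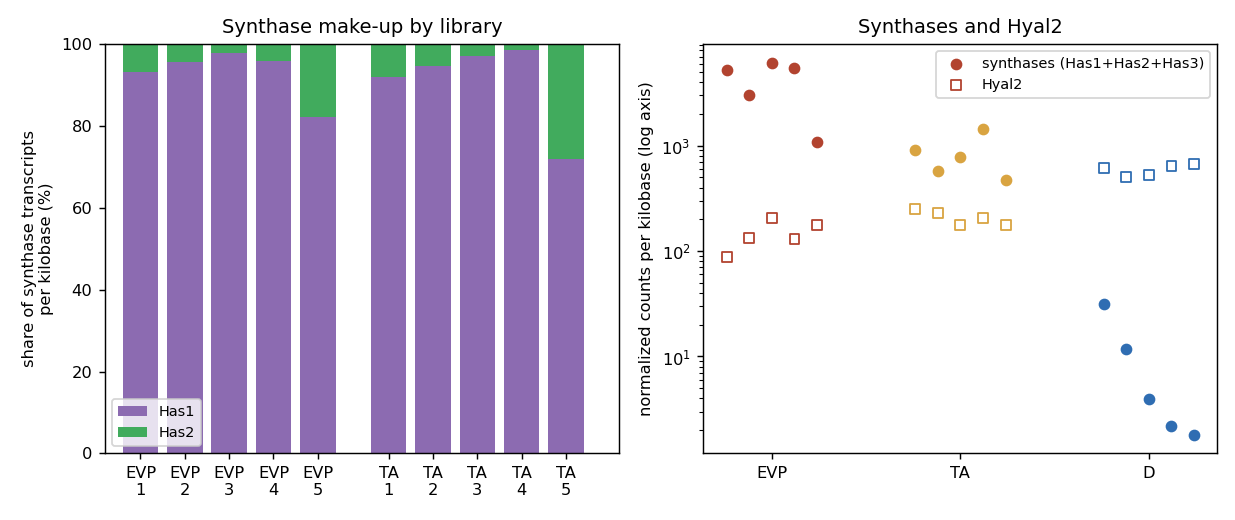
Left, share of synthase transcripts per kilobase (%) taken by *Has1* and *Has2* in each EVP and TA library, with D left out because it held 13 to 106 synthase reads per library. Right, summed synthases (filled circles) and *Hyal2* (open squares) in normalized counts per kilobase on a log axis for replicates 1 to 5 from left to right, where synthases lie above *Hyal2* in all EVP and TA libraries and below it in all D libraries.

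*Hyal2* lies on chromosome 9 from 107567945 to 107572779 (plus strand, ENSMUSG00000010047), and its product cuts long hyaluronan into fragments of intermediate size at the cell surface. D libraries held 2025, 1668, 1729, 2127 and 2207 normalized counts, against 832, 759.5, 583, 674 and 582 in TA and 288, 439, 682, 432 and 578 in EVP. All D libraries were above all others, while EVP replicate 3 lay within the TA range. The log2 fold change of EVP over D was -2.06 (SE 0.21, limma adjusted p = 1.5e-06). The gene *Gm9917* runs antisense inside the *Hyal2* locus without shared exon bases and averaged 70.7 in EVP, 109.97 in TA and 459.99 in D. *Hyal1*, the lysosomal hyaluronidase next to it on the chromosome (107576927 to 107581710), held 73.7, 119, 114, 91.9 and 122 in EVP, 171, 236, 424, 157 and 86.6 in TA and 57.7, 108, 198, 64.6 and 99.1 in D. All 3 populations overlapped. The log2 fold change of EVP over D was 0.10 with a 95% interval of -0.78 to 0.97, and its sign turned under quantile normalization (-0.87) and TMM scaling (-0.046). Values of *Hyal1* are uncertain because 1920 of its 3777 exon bases also belong to *Naa80*, listed as *Nat6*, and 159 to *Hyal3*.

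*Cd44*, the main cell surface receptor for hyaluronan, lies on chromosome 2 from 102811141 to 102901665 (minus strand, ENSMUSG00000005087). EVP libraries held 6857, 6758, 7815, 5212 and 7107 normalized counts, TA libraries 3579.9, 4018, 3853, 4353 and 5984, and D libraries 1035, 270.2, 531, 593 and 809. EVP and TA overlapped through TA replicate 5 and EVP replicate 4, and D lay apart from both. The log2 fold change of EVP over D was 3.50 (SE 0.27, limma adjusted p = 5.7e-08), the smallest among the 5 members that were higher in EVP, and *Cd44* stayed well detected in D with at least 331 reads per library. Gene counts do not separate the variant exons of *Cd44* or the splice forms of *Vcan*.

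*Tnfaip6* encodes TSG-6, a secreted protein induced in inflammation that moves heavy chains of inter-alpha-inhibitor onto hyaluronan, and lies on chromosome 2 from 52038009 to 52056686 (plus strand, ENSMUSG00000053475). EVP libraries held 12046.5, 6000.2, 6779, 6646 and 3301 normalized counts. TA libraries held 1748, 2371, 1574, 1011 and 1356, and D libraries 70.0, 0.816, 0.782, 6.01 and 15.1. No library of a population overlapped with another population, and D replicate 1 was well above the other D libraries. EVP exceeded D by 375-fold (log2 fold change 9.71, SE 0.75, limma adjusted p = 5.3e-08), and without D replicate 1 the log2 fold change was 10.52. Per kilobase, *Tnfaip6* (4067) and *Has1* (3966) headed the 8 genes in EVP, and their library ranges overlapped.

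*Vcan* encodes versican, a large proteoglycan whose end domain binds hyaluronan, and lies on chromosome 13 from 89655312 to 89742509 (minus strand, ENSMUSG00000021614). EVP libraries held 5133, 8245, 5976, 5469 and 4190.2 normalized counts, TA libraries 1281, 3028, 1194, 1359 and 2701, and D libraries 118, 16.3, 38.3, 27.0 and 25.99. The 3 populations did not overlap. *Vcan* was 128.5-fold higher in EVP than in D (log2 fold change 7.29, SE 0.42, limma adjusted p = 1.6e-09). In TA it was highest in replicates 2 and 5, the TA libraries with the highest fibroblast marker sums (528693 and 616732 against 195726 to 266019 in the others), and the part of the latter was not tested. The other members did not share this order. *Has1* was lowest in TA replicates 2 and 5 (2462 and 1542). *Has2* and *Cd44* were highest in TA replicate 5 alone (562 and 5984), and *Tnfaip6* in TA replicate 2 alone (2371). The antisense gene *Gm4117* lies within the *Vcan* locus without shared exon bases.

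The order of the 8 genes per kilobase changed between populations. In EVP the mean levels ran from *Tnfaip6* and *Has1* through *Cd44* (996), *Vcan* (401), *Has2* (211), *Hyal2* (147) and *Hyal1* (27.5) to *Has3* (0.877). Neighbours in this order overlapped except *Cd44* over *Vcan*, *Hyal2* over *Hyal1* and *Hyal1* over *Has3*. In TA the order was *Tnfaip6* (943), *Has1* (780), *Cd44* (643), *Hyal2* (208), *Vcan* (132), *Hyal1* (56.9), *Has2* (56.0) and *Has3* (0.385), with overlap between all neighbours except *Cd44* over *Hyal2* and *Has2* over *Has3*. In D *Hyal2* led at 593, above *Cd44* (95.6) in 5 of 5 libraries, then *Hyal1* (27.9), *Tnfaip6* (10.8), *Has1* (8.69), *Vcan* (3.12), *Has2* (0.779) and *Has3* (0.697), and every pair of neighbours after the leading pair overlapped.

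TA cells also held *Has1*, *Has2*, *Cd44*, *Tnfaip6* and *Vcan* at higher levels than D. Of the 7 members tested, 6 were called between TA and D, 5 higher in TA and *Hyal2* higher in D, where 12.5% of all genes tested were called, 8.21% as higher in TA and 4.31% as higher in D. These 6 had no overlap between libraries, as had 9.25% of all genes, 5.56% with TA above D and 3.69% with D above TA. The folds of TA over D were 89.8 for *Has1* (log2 fold change 7.80, limma adjusted p = 2.6e-05), 86.9 for *Tnfaip6* (7.67, 2.0e-06), 71.9 for *Has2* (5.92, 9.4e-06), 42.4 for *Vcan* (5.61, 1.0e-07) and 6.73 for *Cd44* (2.86, 1.5e-06). *Hyal2* was 2.84-fold higher in D than in TA (log2 fold change -1.51, limma adjusted p = 1.3e-04). *Hyal1* was not called (0.97, limma adjusted p = 0.157). Without D replicate 1 the log2 fold changes of *Has1* and *Tnfaip6* were 8.58 and 8.47, and without D replicate 5 that of *Has1* was 6.84. This comparison shares its D libraries with that of EVP and D.

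Between EVP and TA, mean levels of these 5 genes differed by 1.55-fold for *Cd44* to 5.09-fold for *Has1*. *Vcan*, at 3.03-fold higher in EVP, was the only member of 7 that limma called (log2 fold change 1.68, SE 0.42, adjusted p = 0.0322), where 3.50% of all genes were called, 1.56% as higher in EVP and 1.94% as higher in TA. *Vcan*, *Has2* and *Tnfaip6* had no overlap between EVP and TA libraries, as had 4.29% of all genes, 2.70% with EVP above TA and 1.59% with TA above EVP. *Has1*, *Has2*, *Cd44*, *Tnfaip6* and *Vcan* each had a higher value in EVP than in TA for 5 of 5 replicate numbers. The log2 fold changes that missed the threshold were 2.24 for *Has1* (95% interval 0.21 to 4.26, limma adjusted p = 0.258), 2.19 for *Has2* (0.80 to 3.58, 0.0811), 2.05 for *Tnfaip6* (0.46 to 3.63, 0.168), 0.64 for *Cd44* (0.069 to 1.22, 0.25), -0.55 for *Hyal2* (-1.001 to -0.096, 0.201) and -0.87 for *Hyal1* (-1.75 to 0.0027, 0.324). The call for *Vcan* was lost in 7 of the 15 fits that left out a library, with adjusted p of 0.0505 without EVP replicate 1, 0.104 without EVP replicate 2, 0.0770 without EVP replicate 3, 0.0650 without EVP replicate 4, 0.0754 without TA replicate 1, 0.0874 without TA replicate 3 and 0.0738 without TA replicate 4. *Has2* passed without TA replicate 5 (0.0322) and *Tnfaip6* without D replicate 1 (0.0380).

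**Figure D3:**
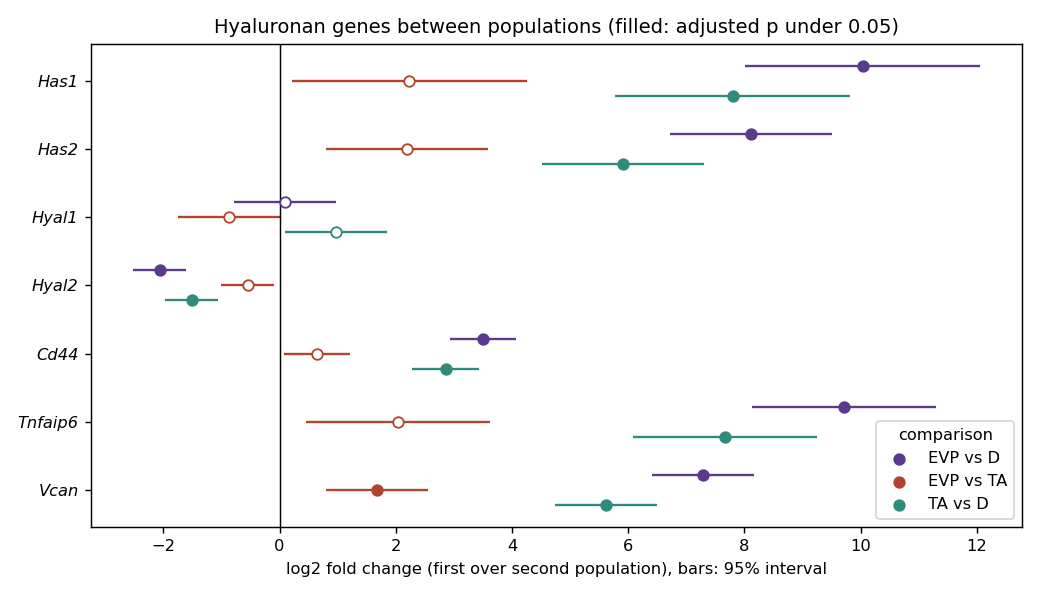
Log2 fold changes of the 7 members tested (x axis, first over second population) with unadjusted 95% intervals in EVP vs D, EVP vs TA and TA vs D, filled where the limma adjusted p is under 0.05. The changes against D reach 10.03 for *Has1*, those of EVP over TA stay between -0.87 and 2.24, and *Hyal2* is on the negative side in all 3.

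On a log2 scale with EVP at 0 and D at 1, the TA mean of the 6 called members lay at 0.184 for *Cd44*, 0.211 for *Tnfaip6*, 0.223 for *Has1*, 0.231 for *Vcan*, 0.266 for *Hyal2* and 0.270 for *Has2*. The median over all 4859 genes called between EVP and D was 0.361, with quartiles of 0.194 and 0.557. The members thus lay on the EVP side of the median and, except for *Cd44*, within the quartiles. These positions use the same libraries as the comparisons above and carry no test.

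The enzymes that supply the UDP-sugars were higher in EVP as well. Of 7 genes tested, 6 were called as higher in EVP than in D and none as higher in D, where 11.6% and 7.46% of all genes were called, with a median log2 fold change of 2.09 beside 0.46 over all genes. *Gfpt2*, which encodes the entry enzyme of the hexosamine pathway, averaged 17186 ± 7320.1 normalized counts in EVP, 4069 ± 1639 in TA and 125 ± 135 in D, and was 138-fold higher in EVP than in D (log2 fold change 7.46, limma adjusted p = 5.4e-09). Its close relative *Gfpt1* was not called (0.42, limma adjusted p = 0.314). *Uap1*, which makes UDP-N-acetylglucosamine, held 13075, 11436, 12781, 12757 and 9422 in EVP, 3468, 2583, 4108, 3069 and 4089 in TA and 835, 876, 965, 839.9 and 739 in D, without overlap between any populations. *Ugdh*, which makes UDP-glucuronic acid, averaged 17963 ± 5365 in EVP, 4911 ± 1207 in TA and 1281 ± 324 in D. *Uap1* was 13.98-fold and *Ugdh* 14.02-fold higher in EVP than in D, with log2 fold changes of 3.80 (limma adjusted p = 5.3e-11) and 3.79 (3.1e-09).

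*Ugp2* (log2 fold change 1.68), *Pgm3* (1.48) and *Gnpnat1* (2.09), which act at earlier steps of the same supply, were also called as higher in EVP than in D. *Gnpnat1* had at most 46 reads per library, and its call was lost without EVP replicate 3 (limma adjusted p = 0.0589) or EVP replicate 4 (0.0636) and under quantile normalization (0.62, adjusted p = 0.808). Between EVP and TA, 4 of the 7 were called as higher in EVP, where 1.56% of all genes were: *Uap1* (1.79, limma adjusted p = 2.2e-05), *Ugdh* (1.85, 7.8e-04), *Pgm3* (0.94, 0.0217) and *Gfpt2* (2.02, 0.0253). The call of *Gfpt2* was lost in 5 of 15 fits without 1 library (EVP replicates 2, 3 and 4, TA replicates 1 and 3, highest adjusted p 0.0765) and that of *Pgm3* in 4 (EVP replicates 2 and 3, TA replicates 3 and 4, highest 0.0743). In edgeR the call of *Gfpt2* was lost (adjusted p = 0.0523), and under TMM scaling that of *Pgm3* (0.0771). Between TA and D, 4 of the 7 were called as higher in TA, where 8.21% of all genes were. These were *Gfpt2*, *Uap1*, *Ugdh* and *Ugp2*, with log2 fold changes of 5.43, 2.01, 1.94 and 1.58. *Gfpt1*, *Gnpnat1* and *Pgm3* were not called (limma adjusted p = 0.971, 0.199 and 0.126).

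Other breakdown enzymes moved in both directions. Of 9 tested, 3 were called between EVP and D, where 19.0% of all genes were, with a median log2 fold change of 0.64 over the list and 0.46 over all genes. The list median is the value of *Hyal5*, which was at or under the floor of 3 reads in 4 of 5 libraries of each population. It is therefore not interpreted. *Cemip*, whose product binds hyaluronan and promotes its breakdown, held 583, 508, 362, 95.1 and 111 normalized counts in EVP, 124, 203, 4.46, 30.6 and 111 in TA and 79.6, 2.45, 0.782, 0 and 1.21 in D. It was higher in EVP than in D without overlap (log2 fold change 5.997, SE 1.13, limma adjusted p = 7.2e-04), although EVP replicate 4 lay close to D replicate 1. *Tmem2*, which encodes a membrane protein that cuts hyaluronan, was 4.44-fold higher in D than in EVP (-2.20, 1.9e-04) and 2.45-fold higher in D than in TA (-1.50, 0.0092).

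*Gusb* (-0.62, limma adjusted p = 0.0281), a lysosomal enzyme gene whose product trims hyaluronan fragments, was called as higher in D than in EVP with overlapping libraries. The call was lost without each of EVP replicates 1 to 3 and D replicates 1, 4 and 5 (adjusted p 0.0519 to 0.0887), under quantile normalization (0.0690) and without a minimum mean (0.0515). None of the 9 was called between EVP and TA, where only 3.50% of all genes were. *Cemip* was higher in TA than in D (3.76, limma adjusted p = 0.0357), a call lost without each of TA replicates 1, 2 and 5 and D replicates 2 to 5 (0.0715 to 0.102). It was also lost in edgeR (2.60, adjusted p = 0.245), in DESeq2 (2.51, 0.143), under quantile normalization (2.26, 0.263), with a pseudocount of 8 (2.28, 0.0863) and without a minimum mean (0.0571). *Hyal3* to *Hyal6* and *Spam1*, a sperm hyaluronidase gene, were not called in any comparison. *Hyal3* had at most 57 reads in any library. *Hyal4*, *Hyal5*, *Hyal6* and *Spam1* each had no read in 3 EVP libraries and in 3 or 4 D libraries. The lack of a call for these genes says little at this depth.

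Among 16 other receptors, link proteins and proteoglycans that bind hyaluronan, 13 were tested and 3 were called between EVP and D, a share near the 19.0% of all genes. *Stab1*, a scavenger receptor gene of sinusoidal endothelium and macrophages, held 365, 129, 216, 107 and 513 normalized counts in EVP, 2330.3, 784, 1330.4, 1284 and 329 in TA and 2438, 3840.2, 4758, 5419 and 3979 in D. It was 15.4-fold higher in D than in EVP (log2 fold change -4.13, SE 0.48, limma adjusted p = 4.5e-06), lower in TA than in D (-1.97, 0.0095) and higher in TA than in EVP (-2.16, 0.0169, or 0.0592 without EVP replicate 2 and 0.0559 with array weights). *Lyve1*, the lymphatic receptor gene, was higher in D than in EVP (-3.81, limma adjusted p = 0.0203), a call lost without EVP replicate 2 (0.0608), EVP replicate 3 (0.0575), D replicate 2 (0.0523) or D replicate 4 (0.0579) and in edgeR (0.0716). *Hapln4*, which encodes a link protein, ranged from 40.8 to 158 in EVP and 10.5 to 214 in TA, while all 5 D libraries were at or under the floor of 3 reads. Its log2 fold change was 5.69 over D in EVP (limma adjusted p = 3.1e-05) and 5.34 in TA (1.7e-04).

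*Layn*, which encodes the receptor layilin, was higher in EVP than in TA (1.09, limma adjusted p = 0.0495), but the call held in only 3 of 15 fits without 1 library, those without EVP replicate 1, TA replicate 2 or TA replicate 5. In the other 12 the adjusted p was 0.0505 to 0.132, and it was 0.128 in edgeR and 0.129 under TMM scaling. *Hmmr*, which encodes a hyaluronan-binding spindle protein, was not called in any comparison, averaging 897 in EVP, 990.2 in TA and 1042 in D. The median log2 fold change over the 13 genes was -0.21 between EVP and D, beside 0.46 over all genes.

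Of the inter-alpha-inhibitor chains and *Ptx3*, 5 of 7 genes were tested. *Ptx3* encodes a pentraxin that joins heavy chains on hyaluronan, and it held 7247, 16170.4, 40481.5, 12089 and 5348 normalized counts in EVP, 1470.2, 3718, 3515, 11254 and 1929.8 in TA and 59.0, 58.8, 50.8, 32.3 and 5.44 in D. It was 394-fold higher in EVP than in D (log2 fold change 8.56, SE 0.66, limma adjusted p = 5.1e-08) and 106-fold higher in TA than in D (6.66, 2.3e-06), and it was not called between EVP and TA (1.90, 0.138). *Itih4* was higher in D than in EVP (-2.77, limma adjusted p = 0.0318) at no more than 48 reads per library, and this call was lost in 7 of 15 fits without 1 library (EVP replicates 2, 4 and 5, D replicates 1, 2, 4 and 5, highest adjusted p 0.0907), in edgeR (0.147) and without a minimum mean (0.0701). *Itih5* averaged 6632 in EVP, 1972 in TA and 2018 in D and missed the threshold in each comparison.

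The ADAMTS proteases that cleave versican divided by gene. Of 6 tested, 5 were called between EVP and D, 2 higher in EVP and 3 higher in D, where 11.6% and 7.46% of all genes were. *Adamts15* held 1608, 3581, 1992, 3442 and 1149.9 normalized counts in EVP, 595, 1185, 241, 635 and 455 in TA and 15.1, 0, 0, 0.751 and 3.63 in D, and was 604-fold higher in EVP than in D (log2 fold change 9.66, limma adjusted p = 1.2e-08). *Adamts5* was 19.5-fold higher in EVP than in D (4.31, 1.7e-07), 5.02-fold higher in TA than in D (2.37, 3.0e-04) and 3.89-fold higher in EVP than in TA (1.94, 0.0075). *Adamts9* (-2.997, 3.5e-04) and *Adamts4* (-1.24, 0.0024) were higher in D than in EVP by limma.

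*Adamts1*, whose mean was 7403 in EVP, 6129 in TA and 12568 in D, was called as higher in D than in EVP (-0.82, limma adjusted p = 0.0372). This call was lost without each of EVP replicates 1, 2, 3 and 5 and D replicates 3 to 5 (0.0510 to 0.112), in edgeR (0.0752) and without a minimum mean (0.0617). Against TA it was also higher in D (-1.02, limma adjusted p = 0.0148), except without D replicate 4 (0.0508). *Adamts15* was higher in TA than in D (7.69, limma adjusted p = 4.5e-07).

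The linkers that tie CD44 to actin also split. *Msn*, the moesin gene, was 3.52-fold higher in D than in EVP (log2 fold change -1.81, limma adjusted p = 7.5e-06) and 2.23-fold higher in D than in TA (-1.25, 8.4e-04). *Ezr*, the ezrin gene typical of epithelium, was higher in EVP (1.11, limma adjusted p = 0.0123) and in TA (1.79, 5.4e-04) than in D. The call in EVP was lost under quantile normalization (0.84, adjusted p = 0.0913) and TMM scaling (0.96, 0.0522). *Rdx* was called as higher in D than in TA (-0.60, limma adjusted p = 0.0268), a call lost without TA replicate 2, TA replicate 3, D replicate 2 or D replicate 5 (0.0571 to 0.0844), in edgeR (0.0543), under quantile normalization (0.0798) and without a minimum mean (0.0502). No linker was called between EVP and TA, where only 3.50% of all genes were.

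**Figure D4:**
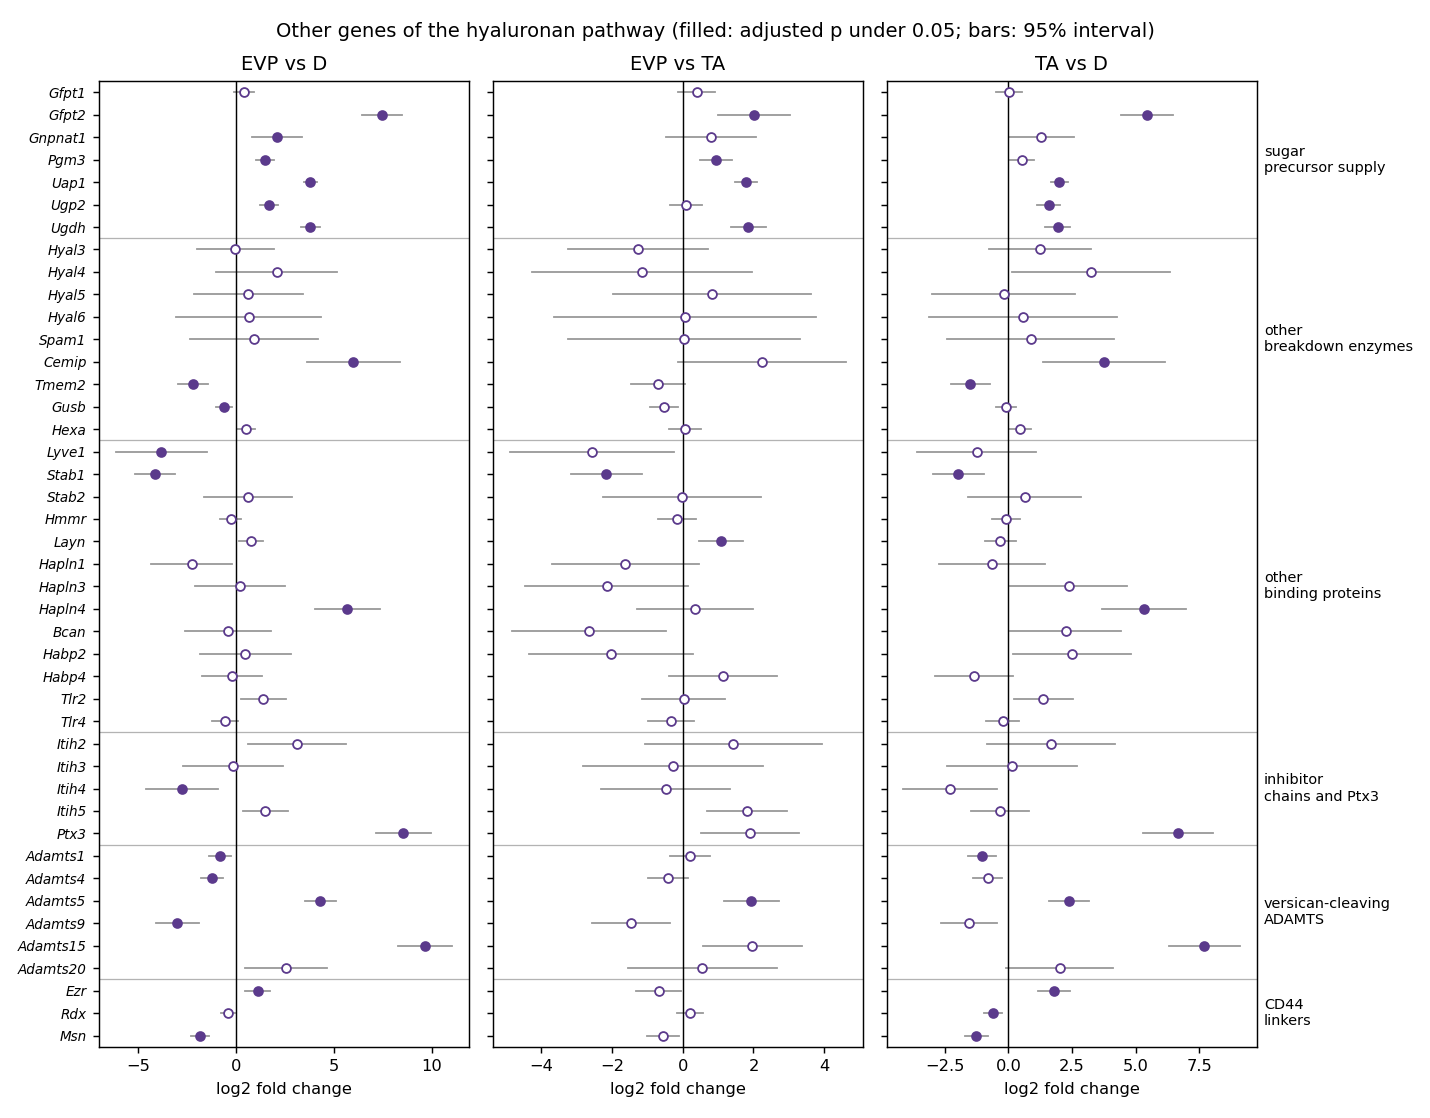
Log2 fold changes with unadjusted 95% intervals of the tested genes of 6 further hyaluronan lists in EVP vs D, EVP vs TA and TA vs D, with a separate x scale for each panel and points filled where the limma adjusted p is under 0.05. In EVP vs D the sugar supply genes lie on the EVP side, led by *Gfpt2* at 7.46, while receptors and ADAMTS proteases lie on both sides, from *Stab1* at -4.13 to *Adamts15* at 9.66.

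Across the 15 libraries the 5 EVP-high members ran together, and *Hyal2* ran against them. Pearson's r of log2 values was 0.98 between *Cd44* and *Vcan*, 0.97 between *Has2* and *Cd44* and 0.86 between *Has1* and *Has2*, and *Hyal2* had r between -0.93 and -0.89 with the 5. *Hyal1* had r between -0.18 and 0.21 with the other members. The libraries fall into 3 populations with different levels, which these values share, so they describe the populations as much as the libraries. Among 17497 protein-coding genes tested, those with the highest r were the matrix genes *Pcolce2* (0.98), *Adamtsl1* (0.98) and *Ltbp1* (0.97) for *Has1* and *Adamts14*, *Col1a1* and *Col5a1* (0.98 each) for *Has2*. They were *Col1a1*, *Lrrc15* and *Sod3* (0.99 each) for *Cd44*, *Cxcl13*, *Adamts15* and *Osr1* (0.99 each) for *Tnfaip6*, and *Srpx*, *C3* and *Wnt16* (0.99 each) for *Vcan*. For *Hyal2* they were *Crip2* (0.98), *Prkab1* and *Ywhah* (0.96 each), and for *Hyal1*, with lower values, *Atp6v1f* (0.89), *Ndufb2* (0.87) and *Ss18l2* (0.84). *Col1a1* is also among the fibroblast markers, and *Adamts15* among the proteases above.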

How the data were processed

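RNA of 15 sorted samples was amplified by the authors with a modified Smart-Seq2 protocol, aligned with STAR 2.5.3a to GRCm38, counted per gene with HTSeq-count 0.6.1 (strand setting not given in the sources used here) and normalized with DESeq2 1.10.1. The deposited normalized counts are signal values, reads divided by 1 size factor per library. All were whole multiples of 1 read (tolerance 0.01), which gives the reads behind each value. The authors also deposited tables of their own comparisons (fold changes and p-values), which were not used.

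Groups followed the labels. Log2(normalized count + 1) was fitted for 25549 genes with a mean of at least 5 with limma 3.58.1 in R 4.3.3, on all 15 libraries, with a trend, and p was adjusted over all genes (Benjamini-Hochberg, two-sided, threshold 0.05). Fold changes on this scale understate those of low genes. A fold is the quotient of 2 mean normalized counts, and ± marks the SD. Levels per kilobase use the merged exon length. Scripts were tested on simulated data. Alternatives were other pseudocounts, minimum means and scalings, array weights, edgeR 4.0.16 and DESeq2 1.42.0 on whole reads, a replicate block and leaving out libraries. The members, gene lists and tests were chosen with earlier results of these data known, and the motifs after the sequences were seen. Named are the 8 members, up to 4 called genes with the largest change per list and comparison and those a small count needs, and the 3 genes most like each member. Promoter windows came from RefSeq. Results on 1 further gene are not reported here.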

Additional observations from a re-analysis of the deposited data

How the results depend on the processing

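Over 26 alternative settings, the 6 calls among the members between EVP and D and the 6 between TA and D held in every setting. *Hyal1*, not called between EVP and D, changed sign under quantile normalization (-0.87), TMM scaling (-0.046), edgeR (-0.070) and DESeq2 (-0.013), and ranged from -0.081 without D replicate 1 to 0.36 without D replicate 3, with -0.04 without D replicate 4. Between EVP and TA, 1 member was called in the report, 3 with a pseudocount of 8 or DESeq2, 0 without a minimum mean or with edgeR, and 0 to 2 without 1 library. *Vcan* had an adjusted p of 0.0536 without a minimum mean and 0.0717 in edgeR. *Has2* and *Tnfaip6* passed with a pseudocount of 8 (0.0132 and 0.0249) and in DESeq2 (0.0293 and 0.0382). Over all genes, array weights called 7609 instead of 4859 between EVP and D and 5054 instead of 3199 between TA and D, where quantile normalization called 2117. The 893 genes called for EVP against TA became 1900 with DESeq2, 522 without replicate number 1 in every population and 428 to 1209 without 1 library (428 without EVP replicate 2, 471 without EVP replicate 3 and 568 without TA replicate 3). The cause of these changes was not tested. Of 1116 refits of the other called hyaluronan genes, 89 lost the call and 0 turned direction. The median log2 fold change of all genes between EVP and D moved from 0.46 to 0.06 without EVP replicate 1 and to -0.05 under quantile normalization.

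The replicate numbers are not known to mark shared animals. Deviations of same-numbered libraries correlated between -0.14 and 0.69, and 12 of 15 pairs correlated best within their number, the exceptions all at number 3. This is a hint from the data and not from the design. Read depth also rose with the replicate number in EVP and D and, apart from replicate 3, in TA. The part of depth in these correlations was not tested. With the replicate number as a block, 5710 genes were called in EVP vs D, 1262 in EVP vs TA and 4047 in TA vs D, *Has2* passed between EVP and TA (0.0191) and *Vcan* did not (0.0510), and the other calls among the members held. *Has3* was below the minimum mean, and *Has1*, *Has2* and *Tnfaip6* in D rest on few reads.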
